A study of Sus scrofa with 6 samples.

Results

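Antibody-secreting cells of the plasma lineage were selected from the cell suspensions of the piglet ileum by the transcripts of single cells. A cell was taken as a member when its barcode held at least 1000 unique molecular identifiers (UMIs, 1 per captured transcript) and 500 genes, at least 5 UMIs of JCHAIN, at least 2 of TXNDC5 and at least 1 of IRF4, no UMI of CD3E or CD3G, and fewer than 5 UMIs over the epithelial genes EPCAM, KRT8 and VIL1. This rule found 570 of 76099 cells, a share of 0.749% (95% interval 0.689% to 0.813%). The members were thus chosen on measured levels of these genes, and their values for these genes are given as a description. The study followed the ileum of sucking piglets at days 0, 1, 3, 7, 14 and 21 after birth, with 1 droplet library at each age. Its methods give 5 piglets of Large White sows per age, kept on maternal milk with no other treatment, and 1 chip channel per group. The labels name male animals and the ileum at every age, whereas the short design text of the series names the cecum. With 1 library per age there was no replicate error, so no difference between ages was tested, and every interval covers counting error only.

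Plasma cells arise from B cells that have met antigen. During this change the factor PRDM1 (BLIMP-1) turns down the B cell program, IRF4 is needed at a high level, and XBP1 enlarges the endoplasmic reticulum (ER), in which antibody chains are folded, joined by disulfide bonds and glycosylated before secretion. In the gut wall most plasma cells make dimeric IgA, whose subunits are linked by the joining chain JCHAIN, and the polymeric immunoglobulin receptor of the epithelium carries this IgA into the lumen. B cells that keep dividing and still carry surface markers while they start to secrete are called plasmablasts, and piglets are born with very few antibody-secreting cells and depend on antibody from colostrum.

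Each library held between 77391932 and 100348769 UMIs and between 10836 and 15956 barcodes that passed the depth limits. Members were deeper than the other cells, with medians of 12222, 9250, 8306 and 7616 UMIs from day 3 to day 21, against 4010, 3722, 4227 and 3504 in the B cells of the same libraries. B cells were defined by the same depth, no JCHAIN UMI and at least 2 UMIs over MS4A1, PAX5 and POU2AF1, and there were 32979 of them. Barcodes with 1 to 100 UMIs, which stood for RNA outside cells, held 0.151, 0.130, 0.452, 1.49, 3.28 and 1.69 UMIs of JCHAIN per 10000 on days 0, 1, 3, 7, 14 and 21. The share of T cells with a JCHAIN UMI, which should lack this transcript, was 0.816%, 0.569%, 1.24%, 2.66%, 7.96% and 5.59% on the same days at median depths of 2575 to 4380 UMIs. The T cell with the most JCHAIN held 3, 7, 1, 1, 2 and 1 UMIs, so that the minimum of 5 lay above every T cell of days 3 to 21, whereas 1 T cell of day 1 held as many as the single member of that library. Of 75427 different barcodes, 672 were found in more than 1 library, and 7 member barcodes were also a cell of another library, though none was a member in both. Transcripts of 66 Y-linked genes made up 2.59 to 3.22 UMIs per 10000 over all cells on days 3, 7 and 14 but 7.47, 17.7 and 11 on days 0, 1 and 21, so these libraries stood apart in a measure that the labels (male at every age) do not separate.

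Members were nearly absent at birth, most frequent on days 7 and 14 and fewer again at day 21. No member was found among 10836 cells on day 0, which allows a share of up to 0.0277% by a limit of 3 counts (0.0340% as the upper end of the exact 95% interval that the plot of shares draws), and 1 was found among 11494 cells on day 1. On day 3 there were 32 members of 11361 cells (0.282%, interval 0.193% to 0.397%), and on day 7 there were 187 of 12634 (1.48%, 1.28% to 1.71%). The share was 1.83% on day 14 (292 of 15956, 1.63% to 2.05%) and 0.420% on day 21 (58 of 13818, 0.319% to 0.542%). Days 7 and 14 together thus held most of the members, and day 21 had a lower share than day 7 beyond counting error. Among members plus B cells the shares were 0%, 0.0367%, 0.537%, 2.69%, 3.52% and 0.736%, in the same order of ages. This denominator leaves out cells of the B cell limits that held a JCHAIN UMI. Those with 1 to 4 numbered 427, 670, 1909, 3038, 5916 and 4825 at these ages. The second set of shares thus depends on how many B cells were left out at each age. The order of days 7 and 14 depended on the thresholds. With at least 10 UMIs of JCHAIN, 4 of TXNDC5 and 2 of IRF4 the share was 0.625% on day 7 and 0.470% on day 14, and with every cell thinned to 2000 UMIs it was 0.370% and 0.214%. The plot of shares by age shows both denominators.

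**Figure D1:**
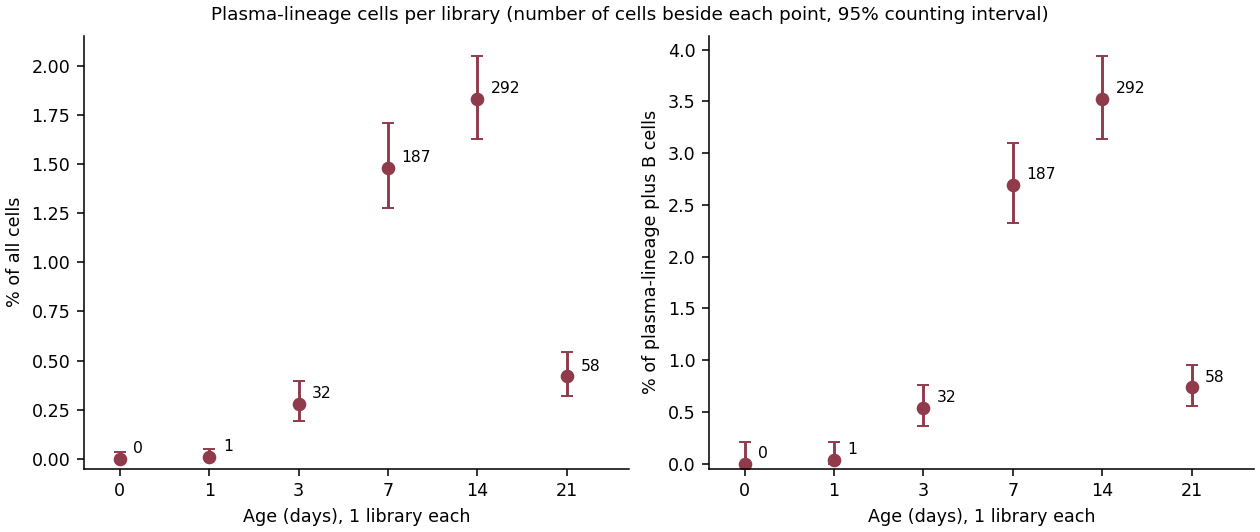
Share of plasma-lineage cells in each library (x axis, age in days), as a percentage of all cells (left) and of plasma-lineage plus B cells without a JCHAIN UMI (right). Points are single libraries, bars are 95% exact binomial intervals and numbers are the cells found. Both panels are at or near 0 on days 0 and 1, highest on day 14 and lower on day 21 than on day 7.

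JCHAIN was also counted with lower limits. Cells with at least 1 JCHAIN UMI made up 6.60%, 8.95%, 20.1%, 28.6%, 42.7% and 37.9% of the libraries of days 0 to 21, so that day 21 lay above day 7. Cells with at least 5 JCHAIN UMIs numbered 10, 16, 91, 320, 654 and 209, or 0.0923%, 0.139%, 0.801%, 2.53%, 4.10% and 1.51%, in the same order of ages as the members, and 35.2%, 58.4%, 44.6% and 27.8% of them in the last 4 libraries also met the other limits. Hence most cells with 5 or more JCHAIN UMIs on day 21 did not reach the TXNDC5 and IRF4 limits. The part of RNA outside cells in the single counts was not tested. The single member of day 1 held 9265 UMIs, with 7 of JCHAIN, 4 of TXNDC5, 2 of IRF4, 2 of PRDM1, 1 of XBP1, 22 of MZB1 and 24 of HSP90B1, and none of MS4A1.

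The comparison with B cells used the 4 libraries with at least 20 members (days 3, 7, 14 and 21), with UMIs summed over the cells of a group and given per 10000. A gene was called higher or lower when its ratio was at least 2-fold in the same direction in all 4 libraries. Because the rule chose the members against these B cells, the ratios are a description. Of 13057 genes with at least 30 UMIs, 476 were higher (3.65%) and 218 were lower (1.67%) in members. The split depended on scaling, since the immunoglobulin transcripts described below took up much of the members' totals. With TMM scaling 630 genes were higher and 119 lower, with JCHAIN and the immunoglobulin genes taken out of the totals 634 were higher and 113 lower, and the median log2 ratio over all genes was -0.24 as scaled here and 0.01 with TMM. The call added 0.5 UMI to each sum, and as members had far fewer UMIs in all, 114 of the 476 genes had no member UMI in at least 1 library. With the added count in proportion to the totals 290 genes were higher, all of them among the 476, and 310 were lower.

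Further plasma cell markers that the rule did not name were read as a description. They are no independent check of the label, since the lists were chosen with earlier results of these data known. Of 15 plasma cell markers outside the rule, 12 were higher in members, against 3.65% of all genes. None was lower and PIM2, SSR4 and EAF2 were neither, with a median of 6.09-fold over the list. SDC1 was not called with the added count in proportion to the totals, which left 11. PRDM1, which represses the B cell program, was at 1.94, 2.48, 2.33 and 2.44 UMIs per 10000 in members of days 3, 7, 14 and 21 and at 0.108, 0.168, 0.183 and 0.160 in B cells. The lowest member value was more than 10 times the highest B cell value, and the log2 ratio was 3.91 ± 0.21 (SD, n = 4 libraries). XBP1, the factor of the unfolded protein response that builds the secretory apparatus, was at 1.69, 4.59, 3.03 and 2.73 in members and between 0.199 and 0.309 in B cells. MZB1, an ER protein that helps to assemble IgM and IgA, was at 20.4, 25.3, 18.5 and 14.9 in members and between 3.87 and 4.24 in B cells, a 4.93-fold difference. TNFRSF17, the receptor BCMA for the survival factor APRIL, was found in 14.1% of members and 0.0911% of B cells. SDC1 (CD138), a surface marker of mature plasma cells, was rare, with a UMI in 1 of 32, 19 of 187, 19 of 292 and 4 of 58 members. CD27 was at 0 in all members and had a UMI in 0.0351% of B cells, too few to compare.

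Among the other factors of plasma cells, CREB3L2, an ER-bound relative of ATF6, and ELL2, an elongation factor that favours the secreted form of the heavy chain, were higher in all 4 libraries at 15.5-fold and 15.2-fold. ELL2 was at 1.57, 2.03, 1.73 and 1.68 in members and at 0.273, 0.138, 0.109 and 0.0683 in B cells, the B cell level being lower at each later age. ZBTB20, on the same list for its part in plasma cell survival, was 2.57-fold lower in members, a call that was lost with TMM and without the immunoglobulin genes in the totals (0.449 against 0.786 on day 14). IRF4 itself, part of the rule, was at 1.88, 3.59, 3.1 and 3.29 in members and at 0.254 to 0.417 in B cells.

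JCHAIN (chr8:67439405-67448628 of Sscrofa11.1), with TXNDC5 and IRF4 on chromosome 7 the basis of the rule, varied widely between members. Its median was 8.76 UMIs per 10000 of a cell on day 3 (range 0.865 to 1924) and 12.9 on day 7 (1.13 to 879). It was again 12.9 on day 14 (1.77 to 578), and reached 27.2 on day 21 (3.51 to 1509). Members with 50 or more JCHAIN UMIs numbered 2 of 32, 21 of 187, 13 of 292 and 13 of 58. Summed over cells, JCHAIN stood at 17.5, 27.9, 21.1 and 62.8 UMIs per 10000. Single cells carried part of this, since without the cell with the most JCHAIN the levels were 7.74, 26.0, 19.3 and 48.3. Per 10000, day 21 was the highest and day 3 the lowest by either measure. These levels depend on the rule, since its minimum of 5 UMIs admits lower levels in the deeper members of day 3. The median count per member was 9.5, 13, 9.5 and 16 UMIs on days 3, 7, 14 and 21.

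**Figure D2:**
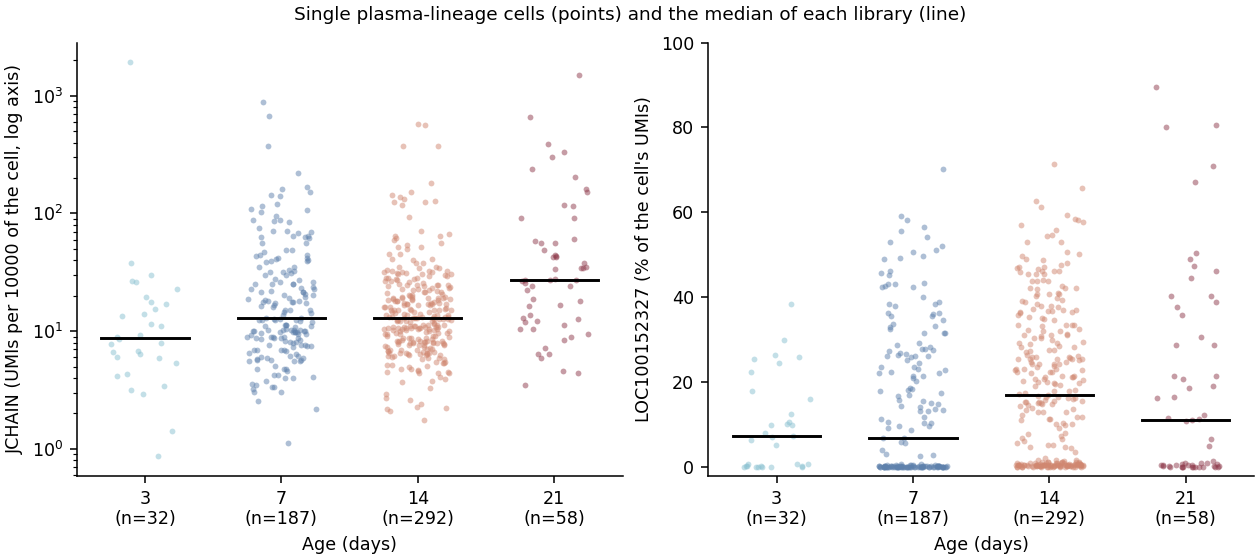
JCHAIN in UMIs per 10000 of a cell (left, log axis) and the percentage of a cell's UMIs that came from LOC100152327 of the chromosome 14 immunoglobulin locus (right), for single members (points) by age with the library median (line). JCHAIN spans about 3 orders of magnitude, and the right panel shows a band of cells near 0 beside cells that reach 38.4% to 89.5%.

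Immunoglobulin genes were taken by position, as protein-coding genes that the reference table places among variable or constant immunoglobulin segments. Such segments were searched on chromosomes 3 and 14 and on unplaced sequence. The 9 genes found lie on chromosome 14 or on unplaced sequence. None lies on chromosome 3, so transcripts of the segments there were not covered. PRAME, which is no immunoglobulin gene, lies among them, and the set was drawn up after the values had been seen. LOC100152327 spans chr14:48800248-49001525 of Sscrofa11.1 and overlaps such segments, so reads from them and from it cannot be told apart. It took up 683, 1516, 1875 and 2315 UMIs per 10000 of the members on days 3, 7, 14 and 21. In B cells it stood at 52.1, 60.7, 102 and 77.7, and in T cells at 1.85, 2.98, 25.4 and 6.35, where 1 cell with 1523 UMIs made up most of the day 14 value. Summed over cells, the members thus spent 6.83% of their captured transcripts on this locus on day 3 and 23.1% on day 21. On day 21 a single member held 19114 of the 111738 UMIs. Without the top cell of each library the member levels were 645.8, 1484.1, 1860.2 and 2007.5 per 10000. The median share of a member did not rise at each age. It was 7.345% on day 3, 6.97% on day 7 and 16.96% on day 14. The day 21 median lay between those of days 3 and 14.

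Within each library the members fell apart by this locus. On day 7 there were 86 members with less than 1% of their UMIs from LOC100152327, 12 between 1% and 10%, and 89 above 10%. The same counts were 13, 6 and 13 on day 3, 80, 32 and 180 on day 14, and 22, 6 and 30 on day 21. The members above 10% thus made up 40.6%, 47.6%, 61.6% and 51.7% of the 4 libraries, against 0.437% of B cells or fewer. As background, an antibody-secreting cell uses either its lambda or its kappa light chain locus. No gene among the chromosome 3 segments was available to set beside LOC100152327. Over all ages, the 312 members above 10% and the 202 below 1% had the same median of 11 JCHAIN UMIs. Their median depths were 9232 and 6850 UMIs, so equal counts do not stand for equal levels. Set against the UMIs outside JCHAIN and the immunoglobulin genes, HSP90B1 was at 43.8 and 40.6 per 10000, MZB1 at 29.5 and 23.5, and XBP1 at 4.97 and 3.85 in these sets. The 56 members in between had lower values, 23.3, 14.5 and 2.13.

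A heavy chain gene, LOC396781 (IGHG among its synonyms, on an unplaced part of the assembly), was carried by a few cells. Its summed level was 0.173, 0.235, 5.03 and 17.9 UMIs per 10000 in members and 0.510, 0.289, 0.148 and 0.241 in B cells. On day 14 a single member held 1251 of the 1343 UMIs, 42.3% of its own transcripts, and on day 21 a single member held 834 of 866. Without these cells the levels were 0.345 and 0.681, and the second-ranking members held 12 and 5 UMIs. This gene was found in 8, 27, 51 and 19 members, so the large ratios of days 14 and 21 each rested on 1 cell. The heavy chains of IgA and IgM were not analysed here.

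Genes that fold a new protein in the ER were higher for the most part. Of 29 chaperones and enzymes of disulfide formation outside the rule, 20 were higher, against 3.65% of all genes. None was lower and 9 were neither, with a median of 3.75-fold. HSP90B1 (GRP94), a chaperone of antibody chains, was at 33.0, 41.7, 27.5 and 25.9 UMIs per 10000 in members and at 2.67, 2.92, 2.52 and 1.98 in B cells, 12.7-fold higher. SDF2L1, DNAJC3 and CRELD2, partners and targets of the same folding system, were 13.9-fold, 12.9-fold and 12.6-fold higher. HSPA5 (BiP), the chaperone that holds free heavy chains, was at 8.04, 8.15, 5.94 and 5.53 against 3.18, 3.14, 3.22 and 2.97, and missed the call on days 14 and 21. Without the immunoglobulin genes in the totals it was called, at 8.65, 9.64, 7.33 and 7.27 against 3.20, 3.16, 3.25 and 2.99, as was CALR, so that 22 of the 29 genes were higher. The difference of HSPA5 was smaller than that of HSP90B1 in every library.

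The steps before and after folding also held genes that were called higher, and none that was lower. Over all genes 3.65% were higher and 1.67% lower, and more were higher without the immunoglobulin genes in the totals. For signal recognition, translocation and signal peptide cleavage, 10 of 23 genes were higher and none was lower, with a median of 2.30-fold. They were led by SEC11C, a catalytic subunit of signal peptidase (8.16-fold), and SPCS2 of the same complex (5.41-fold). The other catalytic subunit, SEC11A, was not called. Of 11 genes of the oligosaccharyltransferase, which attaches N-glycans, 7 were higher and none was lower, with a median of 2.53-fold. STT3B, 1 of its catalytic subunits, was at 2.59, 3.36, 1.96 and 3.71 against 0.309, 0.293, 0.298 and 0.275 in B cells, whereas its other catalytic subunit STT3A was called only with TMM or without the immunoglobulin genes in the totals (1.01, 1.59, 1.19 and 1.36 against 0.355, 0.421, 0.522 and 0.458). Of 31 genes of transport between ER and Golgi, 9 were higher and none was lower, with LMAN1, a cargo receptor for glycoproteins, at 3.48, 3.93, 2.10 and 2.42 against 0.343 to 0.428. In the unfolded protein response and ER degradation, 7 of 23 genes were higher, among them ERN1 (IRE1), the sensor that splices XBP1 (18.9-fold), DERL3 and EDEM1. ATF4, DDIT3, TRIB3 and PPP1R15A, which belong to the PERK branch of this response, were not called, and neither was any of 13 genes of amino acid transport and synthesis. Without the immunoglobulin genes in the totals 12 genes of translocation, 9 of the oligosaccharyltransferase, 15 of transport and 10 of the unfolded protein response were higher, and of the amino acid genes SLC1A4, with none lower in these lists. With the added count in proportion to the totals 19 folding genes, 6 of the oligosaccharyltransferase and 7 of transport were higher, and TRIB3 was lower.

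**Figure D3:**
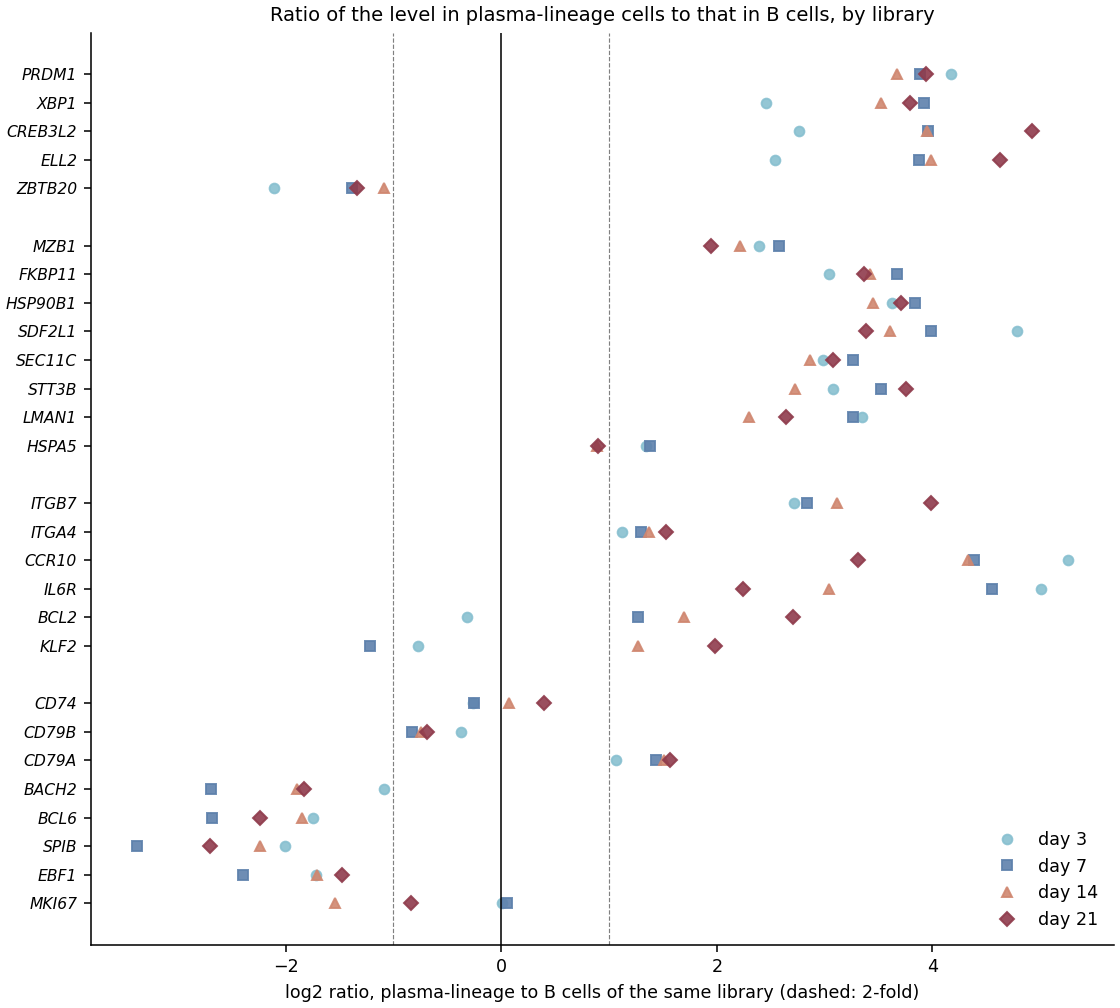
log2 ratio of the level in plasma-lineage cells to that in B cells of the same library (x axis) for selected genes (rows), with 1 marker per age and dashed lines at 2-fold; genes are grouped from top to bottom as factors, secretory apparatus, homing and survival, and B cell genes with MKI67. PRDM1, HSP90B1 and SEC11C lie close together over the 4 ages, and BCL2 and KLF2 lie on both sides of 0.

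B cell genes were lower in part. Of 14 B cell markers outside the rules, LY86 and FCRLA were lower, CD79A was higher and 11 were neither, with a median log2 ratio of -0.67 (-0.41 with TMM). Over all genes 1.67% were lower and 3.65% higher. MS4A1 (CD20), which served to define the B cells, was found in 21 of 32, 133 of 187, 207 of 292 and 45 of 58 members. CD79A and CD79B, the signalling chains of the B cell receptor, went apart: CD79A was 2.78-fold higher, at a low level of 0.281 to 0.352, and CD79B was 1.64-fold lower, at 6.93 to 7.40. The call of CD79A was lost with the added count in proportion to the totals. The sum of the markers did not follow their median, being higher in members on days 7 and 14 (44.5 and 52.0 against 39.4 and 43.9), because VPREB3 alone reached 29.5 and 35.4 there. Of 18 genes of signalling through the B cell receptor, which share both chains with the markers, 16 were neither, CD79A was higher and FCRLA lower.

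Of 13 factors of B cell identity outside the rules, 5 were lower in all 4 libraries, against 1.67% of all genes, and none was higher. Without the immunoglobulin genes in the totals 3 (SPIB, BCL6 and EBF1) were lower, and fewer of all genes were lower too. BACH2, which holds back PRDM1, was at 0.403, 0.190, 0.577 and 0.870 in members and at 0.875, 1.25, 2.15 and 3.13 in B cells. SPIB was 5.53-fold lower, BCL6, the master factor of germinal centres, 4.12-fold, EBF1 3.28-fold and CIITA, which drives MHC class II, 2.91-fold. PAX5, used to define the B cells, was at 2.15, 1.30, 2.53 and 2.86 against 4.21, 5.35, 5.89 and 6.71. For 11 germinal centre genes, 3 were lower, ELL3 and BCL6 among them, and none was higher, with a median log2 ratio of -1.24. RGS13, from the same list, was 2.04-fold higher at the median without a call. Of 11 antigen presentation genes, CIITA and SLA-DOB were lower and 9 were not called, while none was called without the immunoglobulin genes in the totals (CIITA at 0.245 against 0.441 and SLA-DOB at 0.218 against 0.358 on day 21) or with TMM. The list had a median log2 ratio of -0.71, and one of -1.36 on day 7. Their summed level was 73.2, 80.0, 63.1 and 61.4 in members and 92.8, 125, 71.0 and 55.0 in B cells. Without the immunoglobulin genes in the totals the sums were 78.7, 94.6, 77.9 and 80.7 against 93.2, 126, 71.8 and 55.4. The sum was then lower in members on days 3 and 7 and higher on days 14 and 21. CD74, the invariant chain, was at 37.7, 51.8, 42.9 and 37.6 against 45.4, 61.7, 40.8 and 28.6, so that its groups overlapped.

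Homing receptors differed one by one. ITGB7 and ITGA4 form the integrin that binds MAdCAM-1 of gut vessels, and both were higher in all 4 libraries. ITGB7 was at 1.48, 2.31, 1.58 and 1.70 in members and at 0.226, 0.324, 0.183 and 0.108 in B cells, 7.87-fold higher, and ITGA4 was 2.52-fold higher. CCR10, a receptor of mucosal IgA plasma cells, was found in 4.22% of members and 0.119% of B cells, with 4, 7, 16 and 1 UMIs in the 4 libraries. CCR9, the receptor of the small bowel chemokine CCL25, had 0, 4, 1 and 0 UMIs in members, though it was found in 25.1% of the T cells of these libraries. CCR2 was also called, from 1, 16, 8 and 4 UMIs. The egress and positioning genes S1PR1, CXCR4 and CXCR5 were not called.

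Among 13 survival genes with enough UMIs, 3 were higher, namely TNFRSF17, TNFRSF13B and IL6R, against 3.65% of all genes. IL6R, a subunit of the receptor of the plasma cell survival factor IL-6, was at 0.461, 0.789, 0.671 and 0.766 in members and at 0.0145, 0.0336, 0.0818 and 0.164 in B cells. Its partner IL6ST had 0, 3, 0 and 0 UMIs in members and was found in 29.8% of T cells. MCL1, a BCL2 relative on which plasma cells depend, had ratios of 0.75 to 1.08 over the libraries. BCL2 was at 0.442, 0.774, 0.982 and 1.70 in members and at 0.564, 0.323, 0.304 and 0.262 in B cells, so its ratio was below 1 on day 3 and 6.51 on day 21.

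Of 24 cell cycle genes none was called in either direction, with a median log2 ratio of -0.87. Their summed level was 38.8, 34.0, 31.8 and 27.7 UMIs per 10000 in members and 39.4, 48.1, 97.0 and 68.4 in B cells, which were equal on day 3 and apart later, mainly because the B cell level was higher. Without JCHAIN and the immunoglobulin genes in the totals the sums were 42, 40, 39 and 36 in members and 40, 48, 98 and 69 in B cells. The members were then closer to level over the ages. MKI67 or TOP2A was found in 34.4%, 29.4%, 28.4% and 32.8% of members, and in 9.38%, 14.4%, 11.3% and 10.3% after each cell was thinned to 1000 UMIs. The thinned shares were 10.2%, 14.1%, 35.4% and 23.4% in B cells and 4.66%, 7.10%, 5.19% and 6.99% in T cells, which also divide, and no cell type that lacks these genes was measured for the background.

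Apart from JCHAIN and TXNDC5, the genes with the highest ratios among those found in at least 25% of members were ITM2A (44.1-fold), the phospholipase PLA2G16 (38.1-fold), FNDC3B, CABLES1, EMP1, CKAP4, RBM47, LOC100152327, PRKAR2B, LAX1, TMEM38B, CREB3L2 and TUBB2B. ITM2A was at 0.538, 3.04, 2.88 and 1.86 in members and at 0.0284 to 0.0741 in B cells. CKAP4, a membrane protein of the rough ER, was at 0.826, 0.709, 0.371 and 0.290 against 0.0101 to 0.0338, and TMEM38B, a cation channel of the ER, at 0.845, 1.77, 1.97 and 2.49 against 0.0483 to 0.143. The lowest ratios included LMO2 (7.57-fold lower), the enzyme of tryptophan breakdown KYNU (7.34-fold), C1H15orf48, ATF3, LY86, SPIB, DEK, ZC3H12D, FCRLA, ELL3, TMEM131L, SIAH1, MAPK4 and VPS13C. DEK, an abundant chromatin protein, was at 1.81, 0.484, 1.56 and 1.55 in members and at 6.66 to 8.47 in B cells. In 80.7% of B cells and 26.5% of the deeper members it had a UMI.

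Markers of other cell types were read in the same way, as members had more UMIs per cell. Myeloid markers summed to 0.0975 to 0.269 UMIs per 10000 in members and 0.0961 to 0.417 in B cells over the 4 libraries, with CD14, FCN1, S100A9 and S100A12 at 0 in all members. T and NK markers outside the rule summed to 0.639 to 1.12 against 1.24 to 2.20, and 9 epithelial genes outside the rule to 0.0225 to 0.165 against 0.0537 to 0.709. Stromal markers were at 0.534 to 0.731 against 0.220 to 0.978, mostly PECAM1, which was higher in every library (3.37-fold) while VWF, CDH5 and DCN were at 0. Mast cell and erythroid genes reached 0.0192 to 0.269 against 0.112 to 13.9. Outside PECAM1, the called genes of these lists were CD8A, found in 6.15% of members and 25.7% of T cells, and C1QB, of which 14 of 15 UMIs lay on day 7, and neither was called with the added count in proportion to the totals, where LYZ was called lower. Of 8 genes of plasmacytoid dendritic cells none was called, and FLT3 was called higher without the immunoglobulin genes in the totals. Leaving out members with 2 or more UMIs over the lists of T and NK cells, of myeloid, of stromal (PECAM1 among them) and of mast or erythroid cells kept 12, 110, 174 and 35 of them, and with these 827 genes were higher and 318 lower in the 3 libraries with at least 20 members. No doublet caller was run, and the part of doublets was not tested.

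Cells were then ordered by their JCHAIN count over all libraries, from the 32979 B cells without JCHAIN, through 16785 cells of the same B cell limits with 1 to 4 UMIs and 653 non-members with 5 or more, to 246 members with 5 to 9, 275 with 10 to 49 and 49 with 50 or more. This order used a gene of the rule and mixed ages, since 13 of the last 49 cells came from day 21 and 21 from day 7. The 653 non-members had missed the TXNDC5 or the IRF4 limit. A UMI of TXNDC5 was found in 50.8% and of IRF4 in 22.2% of them, against 100% of members for both. The step from this set to the members is therefore not set by JCHAIN alone. HSP90B1 was at 2.56, 3.64, 11.9, 30.5, 32.5 and 45.9 UMIs per 10000 along it, and XBP1 at 0.277, 0.326, 1.27, 2.73, 3.8 and 4.87. TNFRSF17 was at 0.0966, 0.284 and 1.81 in the 3 sets of members and was found in 57.1% of the last one, but the non-members with 5 or more JCHAIN UMIs, at 0.237, lay above the first set of members. ITGB7 went from 0.207 in B cells to 2.79. PRDM1 did not follow, with 2.61, 2.25 and 1.66 in the 3 sets of members and 2.99, 2.79 and 2.24 when JCHAIN and the immunoglobulin genes were left out of the totals.

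Several B cell genes ran the other way, though not each one. BACH2, which is not itself a gene of the rules, was at 1.73, 1.91, 1.36, 0.576, 0.377 and 0.212 along the same order. SPIB was at 1.83, 1.91, 1.11, 0.451, 0.325 and 0.135. For both, the step into the members also lies on the TXNDC5 and IRF4 limits. MS4A1 was at 7.99, 8.93, 7.08, 4.63, 3.56 and 1.95 and PAX5 at 5.17, 5.24, 3.92, 2.40, 1.99 and 1.08, but the first 3 sets were chosen on these genes and the members were not, so that only the order within the members is free of that choice. CD79A was at 0.120, 0.127, 0.166, 0.258, 0.347 and 0.327, and CD22, an inhibitory receptor of B cells, at 1.04, 1.09, 1.09, 1.10, 0.963 and 0.558. CD74 stayed between 41.4 and 47.7 and SLA-DRA between 5.4 and 11.5. The summed cell cycle level was 59.7 in B cells without JCHAIN, 69.8 with 1 to 4 UMIs and 62.1 in the non-members with 5 or more. In the members it was 38.9, 28.4 and 26.5.

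**Figure D4:**
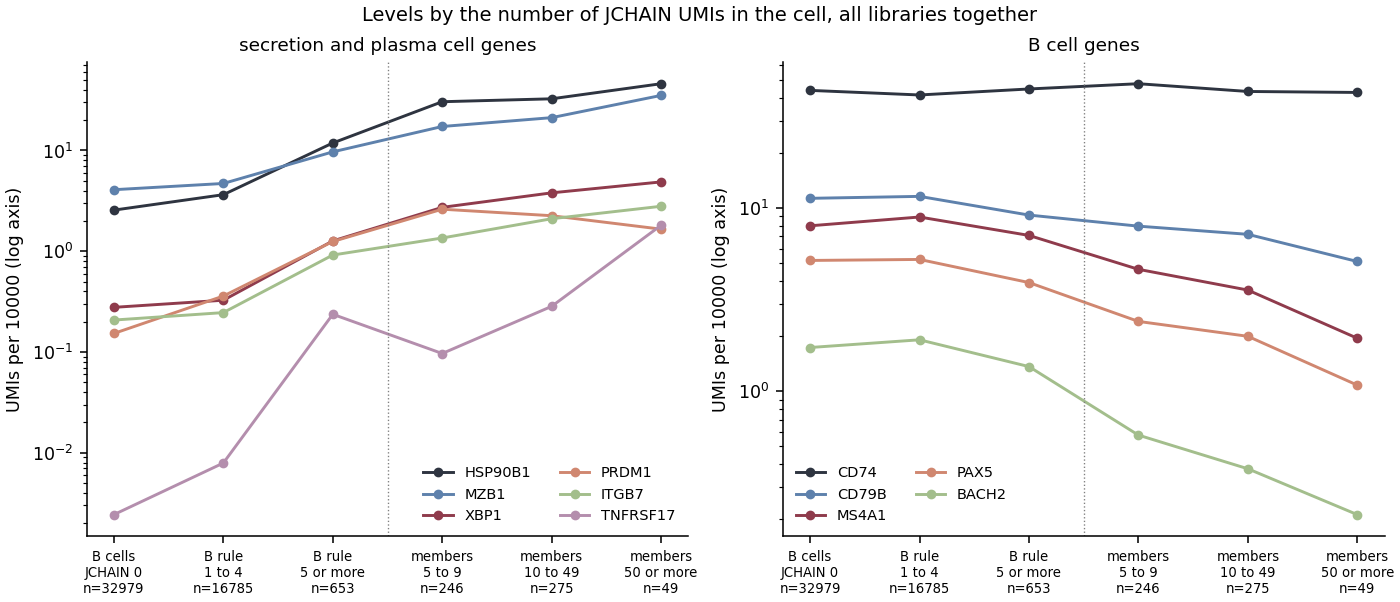
Levels in UMIs per 10000 (log axes) of secretion and plasma cell genes (left) and B cell genes (right) in 6 sets of cells ordered by their JCHAIN count, all ages together. Members, which also met the TXNDC5 and IRF4 limits, are right of the dotted line. HSP90B1, XBP1 and TNFRSF17 are highest and MS4A1, PAX5 and BACH2 lowest in the 49 members with 50 or more JCHAIN UMIs, while CD74 is level.

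Cells just inside and just outside each limit were compared as a description. The 62 members with exactly 5 JCHAIN UMIs had PRDM1 at 3.23, MZB1 at 18.4 and MS4A1 at 4.12 UMIs per 10000, and 69 cells with 4 that met the other limits had 2.97, 19.0 and 5.36. For TXNDC5, 57 members with 2 UMIs had XBP1 at 1.96 and MS4A1 at 5.81, and 78 cells with 1 had 1.39 and 9.27. For IRF4, 172 members with 1 UMI had PRDM1 at 2.12, XBP1 at 3.14 and TNFRSF17 at 0.638, and 203 cells without IRF4 had 1.47, 2.76 and 0.716.

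Between ages, members of 1 library were set against those of another, with a gene called at a 2-fold ratio. Of 6221 genes with at least 30 UMIs, 297 (4.77%) were higher and 283 (4.55%) lower on day 7 than on day 3. Of 7746 genes, 200 (2.58%) were higher and 160 (2.07%) lower on day 14 than on day 7. From day 14 to day 21, 220 of 6836 (3.22%) were higher and 323 (4.72%) lower, and from day 3 to day 21, 224 of 3624 (6.18%) were higher and 343 (9.46%) lower. The last split turned with the scaling, as 397 were higher and 151 lower with JCHAIN and the immunoglobulin genes taken out of the totals. Fewer genes were then lower on day 7 than on day 3. Without members carrying markers of other cells, the counts of day 21 against day 14 also moved. These values are given with the dependence on processing. The day 3 library held only 32 members.

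Of 22 genes of the unfolded protein response and ER degradation, 4 were called higher on day 7 than on day 3 and none lower. These were XBP1, CREB3L2, ERN1 and DERL1. Of 28 folding genes none was called, and 4.77% of all genes were higher. TXNDC5 was also lower on day 3 than on day 7. Its level depends on the rule, since a fixed number of UMIs admits lower levels in the deeper members of day 3. XBP1 was 2.70-fold higher on day 7 (interval 2.18 to 3.42), while its ratio in B cells, which no TXNDC5 limit chose, was 0.98. Over all libraries XBP1 was at 1.96 in members with 2 UMIs of TXNDC5 and at 3.43 in all members. The part of the TXNDC5 limit in the XBP1 difference was not tested. The sum of the 29 ER chaperone genes was 144, 166, 115 and 98.2 UMIs per 10000 on days 3, 7, 14 and 21, and 155, 197, 142 and 129 without JCHAIN and the immunoglobulin genes in the totals. By both measures it was highest on day 7 and lowest on day 21, and it was 27.6 to 31.1 in B cells. CRELD2 was at 3.63, 2.77, 1.26 and 0.725 and SDF2L1 at 7.47, 5.94, 3.45 and 2.26, with ratios of day 21 to day 3 of 0.20 (0.14 to 0.29) and 0.30 (0.24 to 0.37). P4HB, DNAJB11 and PPIB were also called lower on day 21 than on day 3, which made 5 of 26 chaperones against 9.46% of all genes, PPIB not without the immunoglobulin genes in the totals (21.9 and 12.8), where 151 of all 3624 genes were lower, and no chaperone was called higher, though SDF2 was without the immunoglobulin genes in the totals.

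**Figure D5:**
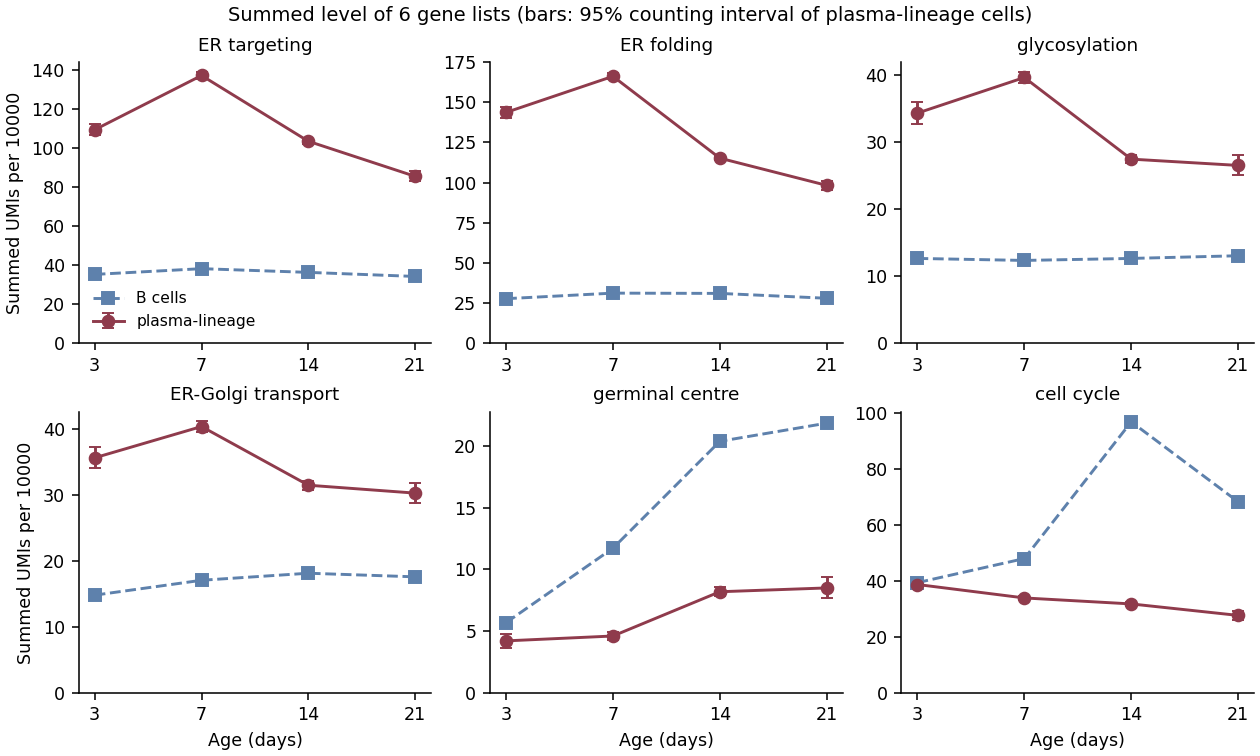
Summed level in UMIs per 10000 of 6 gene lists in plasma-lineage cells (solid line, with 95% counting intervals) and B cells (dashed line) against age, with immunoglobulin genes kept in the totals. The 4 secretory lists lie above the B cells at every age and are highest on day 7, whereas the germinal centre list is higher on days 14 and 21 than before in both, and the cell cycle list differs between them mainly on days 14 and 21.

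Germinal centre genes were higher in members of the later libraries, and in the B cells too. Between days 3 and 21, 6 of 10 such genes were called higher, S1PR2, RGS13, GCSAM, NEIL1 and ELL3 among them, against 6.18% of all genes, and none was lower. The sum of the list was 4.20, 4.60, 8.18 and 8.49 in members and 5.68, 11.7, 20.4 and 21.8 in B cells. MS4A1 in members was at 2.42, 3.12, 4.36 and 6.03, a ratio of 2.49 (2.02 to 3.1) between days 3 and 21, and its ratio in B cells was 2.28. MS4A1 served to define the B cells, so their level of it depends on that choice. The part of RNA outside cells or of B cell transcripts in members was not tested.

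Of 20 cell cycle genes compared between days 3 and 21, 6 were called lower on day 21 and none higher, against 9.46% of all 3624 genes lower. PCNA, the clamp of DNA polymerase, was at 3.07, 1.37, 1.19 and 0.829 in members, a ratio of 0.27 (0.19 to 0.38) between days 3 and 21, and at 2.19, 2.33, 3.34 and 2.16 in B cells. TYMS and MCM4 were lower in the same way, as were MCM5, MCM7 and PLK1, though MCM4, MCM5 and MCM7 were not called without the immunoglobulin genes in the totals. MKI67, at 0.730, 0.944, 0.802 and 0.932, and MCM3, at 0.365, 0.220, 0.352 and 0.435, were not called. CCR7, the receptor for lymph node chemokines, was at 0.710, 0.290, 0.0937 and 0.166 in members and at 0.639, 0.418, 0.157 and 0.0564 in B cells. BCL2 had a ratio of 3.79 (2.40 to 6.40) between days 3 and 21 in members and 0.47 in B cells.

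The genes with the highest ratios of day 21 to day 3 included LOC396781, described above, LOC110257905, LOC100624590, LOC100624149, INO80D, LOC100625207, IFI6, MMP11 and LOC102158906. LOC110257905, LOC100624590, LOC100624149 and LOC100625207 lie on chromosome Y, and the Y-linked sum was 0.883, 4.20, 2.63 and 15.7 UMIs per 10000 in members and 2.72, 2.87, 2.65 and 10.2 in B cells. IFI6, an interferon-induced gene, was at 1.56, 15.8, 11.2 and 9.74 in members and at 2.17, 3.92, 2.30 and 1.13 in B cells, so it was below the B cells on day 3 and above them afterwards. The lowest ratios were those of the mitochondrial gene ATP8, AHCY, LOC106510170, TK1, LOC100625049, PTPMT1, ECSIT, LDHB, LOC110261477 and CRELD2.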

How the data were processed

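Single-cell RNA-seq libraries of the piglet ileum were analysed from the raw, unfiltered UMI counts per gene and barcode that the authors deposited. Per the submitters' processing notes these were made with Cell Ranger 3.1.0 and STAR on susScr11 (Sscrofa11.1), and the deposited counts carry no normalization. The methods name kit v.2 and the labels V3. The members and all gene lists were chosen with earlier results of these data known. No annotation of cells was used.

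Levels are UMIs of a gene summed over cells, per 10000 UMIs. Ratios had 0.5 UMI added to both sums, and genes needed 30 UMIs, in members plus B cells or in the members of both ages. T cells had 2 or more UMIs of CD3E and CD3G and none of MS4A1, PAX5 and POU2AF1. Named genes were those of the rule and of 22 lists (321 of 329 genes found in the files), the 15 highest and 15 lowest ratios to B cells and the 10 highest and 10 lowest of day 21 to day 3, among called genes detected in 25% or more of the higher group, and immunoglobulin genes. Positions, synonyms and Y linkage came from a RefSeq table of the same assembly. Binomial (Clopper-Pearson) and Poisson intervals are exact at 95%, cover counting error only, and used scipy 1.17.1, with numpy 2.4.6, pandas 2.3.3 and Python 3.11.15. TMM factors came from edgeR 4.0.16 in R 4.3.3. No test was run and no p-value is given. The upper limit of a count of 0 is 3 counts. Alternatives changed the depth, marker limits, scaling, members, B cells and minimum of UMIs. A few genes that the naming rule or the lists hold are not reported here.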

Additional observations from a re-analysis of the deposited data

Results flagged for a closer look

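Among the named genes with at least 30 UMIs, 8 had a ratio of members to B cells at least 2-fold up in 1 library and at least 2-fold down in another, each with a 95% counting interval of the ratio on that side of 1, which drew attention to them. Others, such as FABP6 and KIT, passed the folds both ways but with an interval that held 1 in a direction. These differences between ages were not tested, since each age has 1 library, and the count of 0.5 UMI added to the sums weighs on those with few UMIs. CCR6, a chemokine receptor, had ratios of 0.29 on day 3, 2.90 on day 14 and 3.06 on day 21. KLF2, a factor of lymphocyte trafficking, had ratios of 0.43, 2.41 and 3.95 in the libraries of days 7, 14 and 21, with member levels of 1.96, 2.77, 2.78 and 1.20 UMIs per 10000 and B cell levels of 3.37, 6.43, 1.15 and 0.307. LOC396781 (IGHG) had 0.36 on day 3, 34.0 on day 14 and 74.4 on day 21, the last pair resting on 1 cell each. PHGDH, of serine synthesis, had 2.66 on day 3 and 0.26 on day 14. ECSIT had 2.10 on day 3 and 0.36 on day 21, PTPMT1 2.46 on day 3 and 0.47 on day 21, and UBE2C, of mitosis, 2.17 on day 3 and 0.36 on day 14. FCER1A had 0.080 on day 7 and 6.99 on day 14, from 0 and 8 member UMIs.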

How the results depend on the processing

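The plasma-lineage share depended on the limits and the depth. With the looser limits it was 0.0522%, 0.484%, 2.26%, 2.75% and 0.709% on days 1, 3, 7, 14 and 21, with the stricter limits 0%, 0.0792%, 0.625%, 0.470% and 0.145%, thinned to 2000 UMIs 0%, 0.0303%, 0.370%, 0.214% and 0.0845%, and without members carrying markers of other cell types 0%, 0.106%, 0.871%, 1.09% and 0.253%. Of members plus B cells it was 0.537%, 2.69%, 3.52% and 0.736% on days 3 to 21, and on day 7 it was 1.75% above 2000 UMIs and 1.22% above 500 UMIs.

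Counts of genes higher in members than B cells (476) were 290 with a proportional added count, 1022 with the stricter limits and 827 without members carrying other markers (both over 3 libraries), and 6953 with no minimum of UMIs, where the added count alone passes the ratio. Genes lower (218) were 113 without immunoglobulin genes in the totals, 119 with TMM, 349 as a mean over cells, and 270 to 512 with a library left out (365 without day 21, 512 without day 3). With fewer libraries the call asks for less by its construction.

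Between ages, a minimum of 100 UMIs, which tests fewer genes, gave 84 higher and 70 lower on day 7 than day 3, 60 and 51 on day 14 than day 7, 30 and 68 on day 21 than day 14, and 38 and 116 on day 21 than day 3. With no minimum these were 960 and 10368, 1581 and 1449, 9900 and 846, and 1791 and 2275. As a mean over cells 471 genes were higher on day 7 than day 3 and 494 on day 21 than day 14. Without immunoglobulin genes in the totals 182 were lower on day 7 than day 3, and 397 higher and 151 lower on day 21 than day 3. Without members carrying other markers, 89 were higher on day 14 than day 7, 93 higher and 563 lower on day 21 than day 14, and 34 higher and 184 lower on day 21 than day 3.

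List medians (log2) without immunoglobulin genes in the totals and with TMM were -0.36 and -0.37 for B cell receptor signalling, -0.40 and -0.41 for B cell markers, 0.31 and 0.31 for plasmacytoid genes, and 1.25 and 1.20 for ER-Golgi transport. Against B cells of at least 5000 UMIs, an alternative chosen after seeing the data like the proportional count, B cell markers were at -0.48 and plasmacytoid genes at 0.24. The stricter limits gave -0.82 for B cell markers, 1.63 for glycosylation and, with the sign turned, 1.23 for myeloid genes. Without members carrying other markers the cell cycle was at -1.66, plasmacytoid genes at 0.29, plasma cell markers at 2.99 and myeloid genes, turned, at 1.28. As a mean over cells plasma cell markers were at 2.97 and plasmacytoid genes at 0.24. With a library left out, homing ranged from -0.024 to 1.12 and mast cell and erythroid genes from -2.62 to 1.34, above 0 without day 7. The cause of these moves was not tested. Another 265 values of list medians under alternatives moved by less than their spread over libraries.

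No paired analysis was possible between ages because each age has 1 library, whereas members and B cells were set against each other within each library. The age, the library and the piglets cannot be told apart, and the day 3 and day 21 values rest on 32 and 58 cells, so genes with few UMIs in them are limited by depth.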
